A study of Mus musculus with 10 samples.

Results

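The comparison was of primordial germ cells (PGCs) with PGC-like cells made in culture from female embryonic stem cells (ESC-PGCLCs), by RNA sequencing of 2 libraries of each. It took 4 of the 10 libraries of the series, and of the 36066 genes in the expression table it kept the 15386 with at least 1 TPM in 2 or more of these 4 libraries. TPM is a measure of transcript abundance in which reads are corrected for the length of the gene and every library is brought to an equal sum. All groups were of the C57BL6 strain. For the ESC-PGCLCs, a female ES cell line was first turned into epiblast-like cells over 2 days with activin A and bFGF, and these were then cultured for 4 days with BMP4 at 500 ng/ml, EGF at 50 ng/ml, SCF at 100 ng/ml and LIF at 1000 IU. The study sorted PGCLCs by the surface markers CD61 and SSEA1. The labels of the PGC libraries gave no embryonic day, and the study worked with PGCs of more than a single day. According to its methods, PGCs were isolated from female embryos, either by flow cytometry for CD61 and SSEA1 or with magnetic beads against SSEA1. The other 6 libraries were of ESCs, of parthenogenetic ESCs (pESCs, from activated oocytes) and of PGCLCs made from pESCs (pESC-PGCLCs), 2 each. The study's methods count replicates as biological, either mice or repeats of cell work, and the sources used here do not say for these libraries whether the 2 of a group came from separate cultures or litters. The p-values measure the spread between these libraries.

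PGCs are the embryonic founders of oocytes and sperm. In the mouse, BMP signals induce a few epiblast cells to express Prdm1, Prdm14 and Tfap2c, the factors that set up the germ cell programme, and the cells then migrate to the gonad. There they start genes such as Dazl and Ddx4, which encode RNA-binding proteins of the germ line, and in female embryos they go on to Stra8 and the genes of meiosis. PGCLCs are the cultured counterpart of these cells, and a short induction is generally held to bring them to a stage before entry into the gonad.

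The recovered depth was 11140813 and 16434325 reads on genes in the PGC libraries and 7697691 and 6779837 in the ESC-PGCLC libraries. At these depths 3 reads on a gene of median exon length were worth 0.152 to 0.216 TPM in PGCs and 0.289 to 0.338 TPM in ESC-PGCLCs, and such floors cover counting error only. Genes with at least 1 TPM numbered 15886 and 15174 in PGCs and 13512 and 13679 in ESC-PGCLCs. Across the tested genes, the square of Pearson's r was 0.928 between the PGC libraries, 0.944 between the ESC-PGCLC libraries and 0.807 to 0.879 between libraries of the 2 groups. PGC replicate 2 lay closer than PGC replicate 1 to both ESC-PGCLC libraries. The share of TPM on 37 mitochondrial genes was 20.2% and 21.6% in PGCs and 21.1% and 21.2% in ESC-PGCLCs. A set of 11 predicted genes with Gm10800 among them, chosen after their values were seen, held 0.37% and 1.2% of TPM in PGCs against 6.77% and 2.05% in ESC-PGCLCs, so its level differed between the libraries of each group.

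The libraries labelled ESC-PGCLC carried Dazl, Ddx4 and Stra8, genes of the gonadal and meiotic stages, far above ESCs. Dazl and Ddx4 were close to PGCs, and Stra8 was lower by less than 2-fold. Some other genes of these stages, such as Rec8 and Tex101, were called lower and Sycp3 higher, as described below. Dazl stood at 1958 and 2095 TPM in PGCs and 1664 and 1821 in ESC-PGCLCs, against 13.2 and 13.6 in ESCs. For Ddx4 the values were 189 and 303 TPM in PGCs and 260 and 281 in ESC-PGCLCs, so the groups overlapped, with 2.63 and 3.35 in ESCs. Stra8, the gatekeeper of meiotic entry, was read at 333 and 343 TPM in PGCs and at 192 and 212 in ESC-PGCLCs (log2 difference -0.74, adjusted p = 0.00748 by limma), short of the 2-fold minimum, and it lay at 2.53 and 3.59 TPM in ESCs. The median change over all tested genes was -0.55, so the Stra8 difference was near the shift of the comparison as a whole. These 3 genes were chosen after their values were seen. All 3 are usually taken as markers of stages later than a 4-day induction reaches, and the labels named no gonadal cells in this culture.

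**Figure D1:**
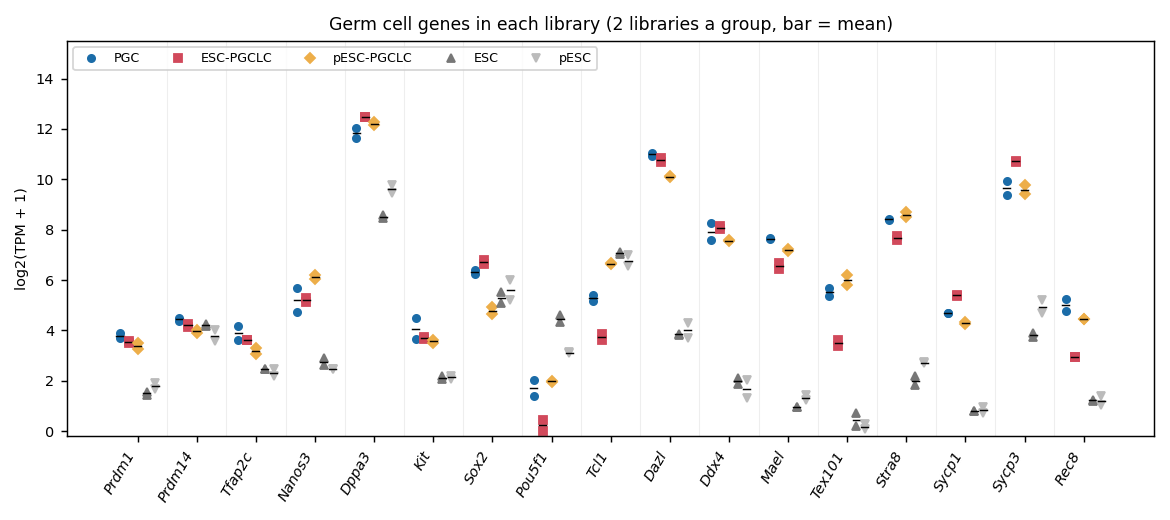
Level of 17 germ cell genes in each library as log2(TPM + 1), with 2 points and a mean bar for each of the 5 groups. Dazl and Ddx4 sit high in PGCs and in both kinds of PGCLC and low in ESCs and pESCs, Sycp3 is highest in ESC-PGCLCs, and Rec8, Tex101 and Tcl1 are lower in ESC-PGCLCs than in PGCs.

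Against PGCs, 3312 genes were lower and 537 higher in ESC-PGCLCs where a call needed 2-fold or more and an adjusted p below 0.05 (limma on log2(TPM + 1), variances from all 10 libraries, Benjamini-Hochberg adjustment over all genes tested). These are 21.5% and 3.49% of the genes tested. The filter also kept genes that reached 1 TPM in the libraries of 1 group alone. Such genes could be called only as higher in that group. No called gene had overlapping values between the 2 groups, and among all tested genes 10103 of the 12209 with a lower mean log2 level in ESC-PGCLCs and 1751 of the 3173 with a higher one had none either. The median change over all tested genes was -0.55 on the log2 scale, so the comparison was shifted towards lower values as a whole. With each library centred on the median of the 9024 genes at 1 TPM or more everywhere, 686 genes (4.46%) were lower and 1425 (9.26%) higher. The direction that prevailed among the called genes therefore turned with the scaling. With 2 libraries against 2, the smallest p of a two-sided exact permutation test is 0.333, and the p-values here come from limma's model of the variance.

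The shift was uneven along GC content, the share of G and C bases in a transcript. Among protein-coding genes, the median log2 change was -0.24 in the lowest of 5 equal bins of GC (18.1% to 43.4%) and -0.99 in the highest (54.9% to 76.3%). In the lowest bin 81 of 2262 genes were called lower, which is 3.58%, and in the highest 1097 of 2262, which is 48.5%. Median transcript GC was 53.5% for the lower, 45.9% for the higher and 47.4% for the genes that were not called, and median promoter GC was 60.7% for 2174 lower genes, 55.3% for 202 higher genes and 61.0% for 7118 genes that were not called. After the trend with GC had been removed from each library, which also centres it, 588 of 15280 genes (3.85%) were lower and 1064 (6.96%) higher. Whether the GC trend arose in the cells or in the libraries was not tested. Of the genes called from the deposited values, 443 lower and 505 higher ones were called in the same direction also after median centring, quantile normalization and GC correction. These are described below as called under all 4 scalings. Median centring kept all 537 higher calls but 20.7% of the lower ones, and GC correction kept 97% and 17.8%. These scalings moved the median change up from -0.55, so for higher genes they were a weak check.

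**Figure D2:**
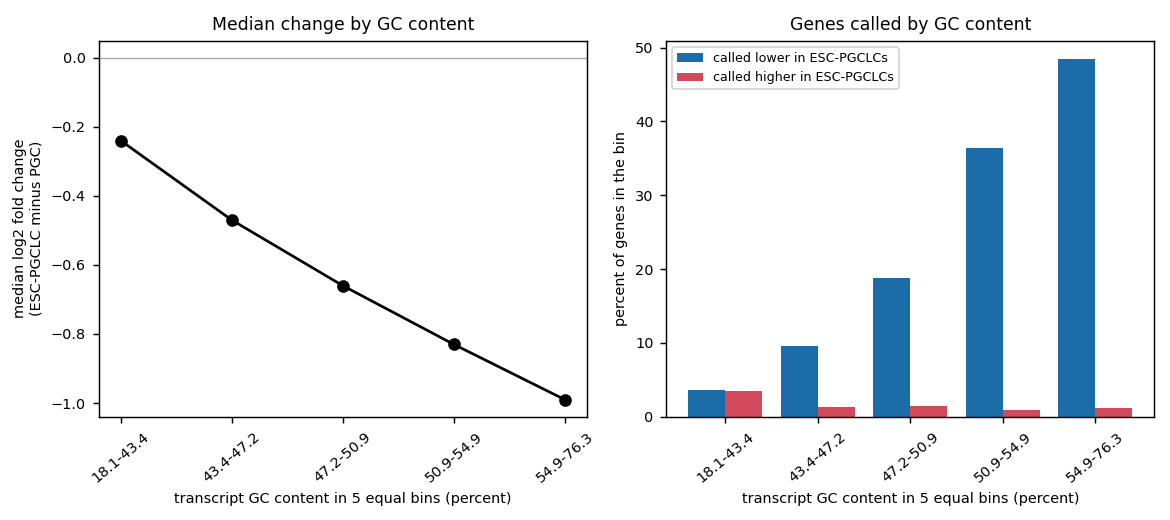
Protein-coding genes in 5 equal bins of transcript GC content (x axes, percent). Left, the median log2 fold change of ESC-PGCLCs against PGCs, which runs from -0.24 to -0.99. Right, the percent of each bin called lower or higher, with lower calls going from 3.58% to 48.5%.

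H19, a maternally expressed imprinted long noncoding RNA (mm10, chr7:142575529-142578143, minus strand), fell from 120 and 84.0 TPM in PGCs to 5.90 and 7.59 in ESC-PGCLCs (log2 change -3.72 ± 0.21 SE, adjusted p = 0.00015), the largest fall among the named genes. Amhr2, the receptor for anti-Müllerian hormone, which gonadal somatic cells carry (chr15:102445367-102454633), went from 21.7 and 19.2 TPM to 1.26 and 2.33 (-2.96 ± 0.22, adjusted p = 0.00024). Myl9, a myosin light chain of contractile cells, was at 52.6 and 38.6 TPM in PGCs and at 4.16 and 5.29 in ESC-PGCLCs. Serpina3a, a serine protease inhibitor, had nearly equal values within groups, 30.5 and 30.5 TPM against 3.38 and 3.56. These 4 genes, with Bmyc, Gstm1 and Gps1, were lower under all 4 scalings.

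A large fall could rest mainly on PGC replicate 1. Pfn1, which encodes the actin-binding protein profilin, stood at 250 TPM in PGC replicate 1, 36.3 in PGC replicate 2 and 12.9 and 16.5 in ESC-PGCLCs, and it did not pass after median centring or GC correction, nor without PGC replicate 1 or either ESC-PGCLC library. Ubb, a polyubiquitin gene, was at 5379 and 2260 TPM in PGCs and 495 and 441 in ESC-PGCLCs and passed under both of these scalings. The 4 histone H2A genes Hist1h2an, Hist1h2ak, Hist1h2af and Hist1h2ai also stood among the 15 largest falls. They are near-identical copies whose reads the counting may have split, so their single values are uncertain. Hist1h2ak was not called after median centring or GC correction, nor without PGC replicate 1 or ESC-PGCLC replicate 2.

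The largest rises were a mixed group. Blnk, an adaptor protein known from B cell receptor signalling (chr19:40928927-40994535, minus strand), rose from 1.13 and 2.40 TPM in PGCs to 23.8 and 40.3 in ESC-PGCLCs (3.57 ± 0.32 SE, adjusted p = 0.00037). Spry2, an inhibitor of receptor tyrosine kinase and ERK signalling, rose from 65.1 and 77.0 TPM to 293 and 387 (2.23 ± 0.30, adjusted p = 0.00098). Insig1, which restrains sterol synthesis, rose from 63.9 and 101 TPM to 292 and 357. Tmf1, a Golgi protein, was at 42.4 and 42.4 TPM in PGCs and at 227 and 244 in ESC-PGCLCs. All 4 rose under the other scalings too, as did the zinc finger genes Zfp979 and Zfp984 and the lipase gene Lipg. So did nearly all genes called higher.

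Ctc1, a telomere maintenance factor, had the widest spread among the largest rises, at 39.7 and 20.5 TPM in PGCs and 593 and 165 in ESC-PGCLCs (3.41 ± 0.58 SE, adjusted p = 0.0022). Rpl26, Tmsb15b1, Hspa1b and the pseudogenes Hmgb1-ps7 and Rps19-ps6 belong to families of near-identical copies, so their values are uncertain. By gene class, 189 of 11308 protein-coding genes were called higher (1.67%), against 65 of 511 lincRNAs (12.7%) and 58 of 357 unprocessed transcript models named TEC (16.2%). Of the 505 genes higher under all 4 scalings, 173 were protein-coding, and of the 443 lower ones, 286.

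**Figure D3:**
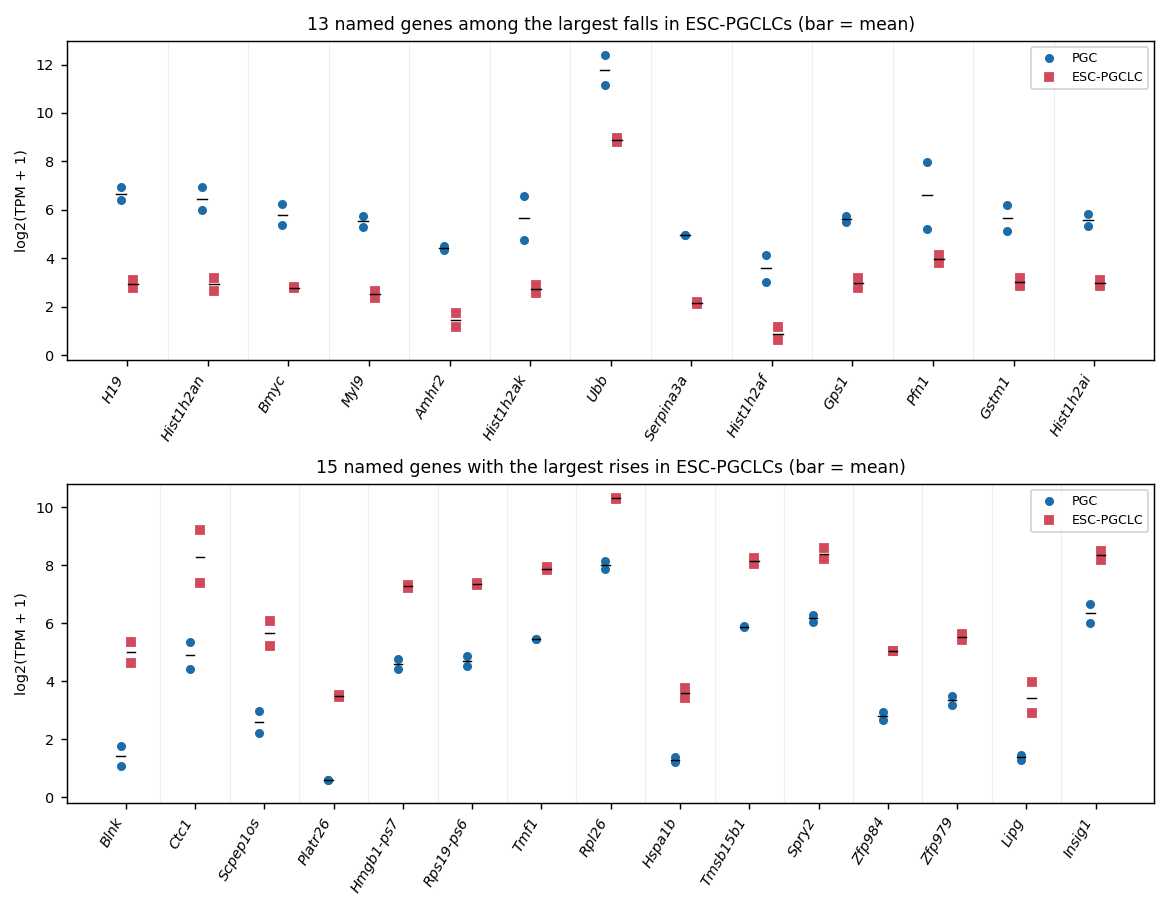
Level in each PGC and ESC-PGCLC library, as log2(TPM + 1), of 13 named genes among the largest falls (top) and the 15 with the largest rises (bottom), with a mean bar per group. H19 has the largest fall and Blnk the largest rise, and the PGC libraries stand far apart for Pfn1 and the ESC-PGCLC libraries for Ctc1.

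Among 21 genes of PGC specification and early germ cell identity, all tested, 4 were lower, near the 21.5% of all genes, and none higher. The median change was -0.34 (-0.82 to -0.25 over the 4 pairs of libraries) beside -0.55 for all genes. This median was 0.14 after GC correction and 0.27 after centring, so its sign depended on the scaling. Prdm1, which encodes BLIMP1, was at 13.9 and 12.0 TPM in PGCs and 10.9 and 10.4 in ESC-PGCLCs (-0.25 ± 0.17 SE, adjusted p = 0.24). Prdm14 gave 19.9 and 21.7 against 16.7 and 18.0 TPM, and Tfap2c 17.2 and 11.3 against 11.3 and 11.2. Nanos3, needed for PGC survival, overlapped between groups with 25.8 and 50.6 TPM in PGCs and 38.5 and 34.3 in ESC-PGCLCs. Dppa3, which protects maternal imprints in the egg, was 3165 and 4168 TPM in PGCs and 5628 and 5681 in ESC-PGCLCs (0.64, adjusted p = 0.016), below the 2-fold minimum. After median centring Dppa3 was called higher (1.24), but not after quantile normalization (0.34) or GC correction (0.99).

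The other members of this list that were not called had changes from -0.93 for Ifitm3 to 0.39 for Sox2. Sox2 read 83.4 and 75.1 TPM in PGCs and 97.3 and 111 in ESC-PGCLCs, Nanog 43.8 and 31.4 against 24.2 and 35.0, and Kit, a receptor that migrating PGCs carry, 21.4 and 11.6 against 11.7 and 12.2. The surface proteins Ifitm3 (834 and 435 against 332 and 299 TPM) and Ifitm1 (1307 and 1289 against 1087 and 1050) did not pass the test. For Sall4, a zinc finger factor of pluripotent and germ cells, 38.6 and 35.7 TPM stood against 20.5 and 20.9, and for Dnd1, an RNA-binding protein of PGCs, 46.1 and 39.6 against 23.5 and 30.0. Elavl2, Rhox5, Rhox6 and Rhox9 changed by -0.61 to 0.03 and were not called.

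The 4 lower members were Tcl1, Alpl, Lin28a and Pou5f1. Tcl1, a coactivator of AKT, went from 34.6 and 41.8 TPM to 11.2 and 13.5 (-1.56, adjusted p = 0.00074). Alpl, the alkaline phosphatase once used to stain PGCs, went from 18.0 and 8.29 to 4.64 and 4.20 TPM. Lin28a, a block on let-7 maturation, went from 6.28 and 4.77 to 1.63 and 1.85 TPM. Pou5f1, which encodes OCT4, was low in all 4 libraries, with 3.14 and 1.63 TPM in PGCs and 0.374 and 0 in ESC-PGCLCs, while ESCs had 23.5 and 19.01. Pou5f1 is a defining marker of PGCs, and in both groups its level lay below that of ESCs. Its call rested on 45 and 33 reads in PGCs against 4 and 0 in ESC-PGCLCs, and it passed the filter through the PGC libraries alone. In ESCs it read far below Nanog (674 and 470 TPM), and whether these values count Pou5f1 in full was not tested. None of the 4 was called after GC correction or centring, and Alpl was not called without PGC replicate 1.

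Of 36 gonadal germ cell genes in the table, 31 were tested, and 6 were lower and 1 higher. Over all genes 21.5% were lower and 3.49% higher, so the lower count was near that share. After GC correction 1 was lower and 2 higher, against 3.85% and 6.96% of all genes. The median change was -0.22, and 0.06 after GC correction. Tex101, a surface glycoprotein of germ cells (chr7:24668007-24676675, minus strand), fell from 50.5 and 40.2 TPM to 9.39 and 11.3 (-2.03 ± 0.24 SE, adjusted p = 0.00069) and was the only lower member called under all 4 scalings. In pESC-PGCLCs it stood at 73.4 and 54.9 TPM. Fkbp6, a chaperone of the piRNA pathway, fell from 296 and 295 TPM to 120 and 120, and the piRNA factors Mael, Mov10l1, Tdrd1 and Tdrd7 had changes of -1.01 to -1.33, where Mael was not called without ESC-PGCLC replicate 1. Trap1a, an X-linked tumour antigen gene, was higher, with 106 and 192 TPM in PGCs and 282 and 292 in ESC-PGCLCs (1.00, adjusted p = 0.019), under all 4 scalings. It was not called in 3 of the 4 fits that each left out a library, those without PGC replicate 1 or either ESC-PGCLC library, which gave 0 higher genes in this list.

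Of 37 tested meiosis genes, 2 were lower, a share below the 21.5% of all genes, and 1 was higher (3.49% of all genes were). The median was -0.22 as deposited and 0.17 after GC correction. After median centring 1 was lower and 6 were higher, against 4.46% and 9.26% of all genes. After GC correction 1 was lower and 2 were higher, against 3.85% and 6.96%, so the balance of this list turned with the scaling. The gene called higher as deposited was Sycp3, a lateral element of the synaptonemal complex that holds paired chromosomes (chr10:88459569-88473236), at 666 and 973 TPM in PGCs and 1702 and 1651 in ESC-PGCLCs (1.06 ± 0.24 SE, adjusted p = 0.0072). It passed after centring and GC correction but not after quantile normalization and not without PGC replicate 1, and without PGC replicate 2 the list had 2 higher genes. The lower gene that passed under all 4 scalings was Rec8, the meiotic cohesin (chr14:55618037-55625395), at 37.1 and 26.3 TPM in PGCs and 6.73 and 6.70 in ESC-PGCLCs (-2.06 ± 0.20, adjusted p = 0.00045). Majin, which tethers telomeres to the nuclear envelope, was lower with 6.59 and 3.78 against 1.67 and 0.898 TPM. Of the remaining components, Sycp1 read 24.8 and 24.8 against 40.5 and 41.5 TPM, and the meiotic cohesin gene Smc1b 129 and 150 against 203 and 230, both without a call as deposited. Sycp1 and Smc1b were chosen after their values were seen.

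The promoters of the 2 meiosis genes that moved apart are shown because they share a tissue and a stage but not a direction. RefSeq sequences (GRCm38.p6) cover 250 bases before and 50 after the start, and capitals mark the E-box CACGTG and the E2F motif GCGGGA or its reverse complement TCCCGC.
Sycp3, chr10:88459337-88459636, plus strand: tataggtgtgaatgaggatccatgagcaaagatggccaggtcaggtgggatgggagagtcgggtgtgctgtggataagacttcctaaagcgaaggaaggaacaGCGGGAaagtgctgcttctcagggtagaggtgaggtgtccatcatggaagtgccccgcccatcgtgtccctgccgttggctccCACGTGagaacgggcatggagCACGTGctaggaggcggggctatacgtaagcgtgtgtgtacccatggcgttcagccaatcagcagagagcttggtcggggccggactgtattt
Rec8, chr14:55617916-55618215, plus strand: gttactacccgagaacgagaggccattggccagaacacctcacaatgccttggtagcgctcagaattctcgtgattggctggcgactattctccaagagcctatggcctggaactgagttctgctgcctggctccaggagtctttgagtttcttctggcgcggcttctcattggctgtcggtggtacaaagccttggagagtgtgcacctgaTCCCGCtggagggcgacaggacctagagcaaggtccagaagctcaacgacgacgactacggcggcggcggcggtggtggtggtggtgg
The Sycp3 window held 2 E-boxes, beginning at -64 and -43 bases from the start, and 1 E2F motif, and the Rec8 window held 1 E2F motif and no E-box. Over 32841 windows of this length, 7.15% held an E-box and 20% an E2F motif on either strand. GC content was 57% in the Sycp3 window and 58.3% in that of Rec8, while the transcripts had 34.3% and 56.7%.

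Of 28 listed oocyte genes 9 passed the filter, and only Pou5f1 was called lower, a share below the 21.5% of all genes. The count was larger without ESC-PGCLC replicate 2 or PGC replicate 2. The zona pellucida gene Zp2 was at 0 in all 4 libraries, and Gdf9, a growth factor of oocytes, had 0.232 and 0.382 TPM in PGCs and 0 in both ESC-PGCLC libraries. Figla, a transcription factor of the early oocyte, was read at 16.3 and 17.7 TPM in PGCs and 8.55 and 8.82 in ESC-PGCLCs (-0.90, adjusted p = 0.00483), without reaching 2-fold. Figla, Zp2 and Gdf9 were chosen after their values were seen.

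Of 29 tested pluripotency genes 6 were lower (21.5% of all genes were) and none higher, with a median of -0.54, beside -0.55 for all genes. Many lay far below ESCs in both groups, such as Nanog, which ESCs held at 674 and 470 TPM. Besides Pou5f1, Tcl1 and Lin28a, the genes called lower in ESC-PGCLCs were Utf1 (78.5 and 43.8 against 19.7 and 22.8 TPM), Trim28, a corepressor of retroelements (158 and 115 against 40.8 and 34.5), and Mybl2. None was called after GC correction, and without PGC replicate 2 the count was 10. Of 14 epiblast genes 1 was lower, Tead2, a share below the 21.5% of all genes. The epiblast count changed without ESC-PGCLC replicate 2 or either PGC library. Of 7 neural genes and 4 Hox genes none was called, with Pax6 at 3.92 and 4.39 against 5.39 and 6.64 TPM and Hoxd8 at 4.11 and 2.30 against 1.46 and 2.78. Of 19 mesoderm genes 4 were lower (21.5% of all genes were), with a median of -0.58, and Bmp4 went from 10.9 and 8.47 to 3.55 and 3.94 TPM. That count rested on single PGC libraries, with 0 lower without PGC replicate 1 and 8 without PGC replicate 2, and none of the 4 was called after GC correction or centring.

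Among the lists with at least 5 tested members, gonadal somatic markers and markers of blood and endothelium had the lowest medians. Of 17 tested gonadal somatic markers 13 were lower and none higher (21.5% of all genes were lower), with a median of -1.67, and 6 were lower under all 4 scalings. After GC correction 7 were lower (against 3.85% of all genes), with a median of -0.80. Some members reached 1 TPM in the PGC libraries alone, so they could not come out higher. Examples are Inha (4.89 and 4.43 against 0.285 and 0.333 TPM) and Gata4 (5.82 and 3.89 against 0.485 and 0.818). Wt1, which marks the somatic cells of the gonad, was at 26.2 and 22.4 TPM in PGCs and 7.16 and 8.05 in ESC-PGCLCs. Emx2, needed for the genital ridge to form, was at 10.3 and 12.5 against 1.68 and 2.54, Rspo1, an ovary-determining factor, at 12.5 and 8.68 against 1.30 and 1.90, and Kitl, the ligand of Kit, at 61.3 and 70.6 against 19.7 and 20.3. In ESCs Emx2 was at 0 and Wt1 at 0.0526 and 0.0136 TPM.

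The summed level of the gonadal somatic markers was 251 and 221 TPM in PGCs, 59.4 and 67.2 in ESC-PGCLCs, 135 and 128 in pESC-PGCLCs and 14.2 and 16.0 in ESCs. The sum in ESC-PGCLC libraries was thus well above ESCs and below PGCs. Amhr2 went the other way against ESCs, at 1.26 and 2.33 TPM in ESC-PGCLCs and 4.22 and 3.57 in ESCs. Of the defining markers, Foxl2, of ovarian granulosa cells, was at 1.64 and 0.782 TPM in PGCs and 0.0646 and 0.0755 in ESC-PGCLCs. In bulk libraries fewer cells of a type and less RNA per cell cannot be told apart, and the part of somatic cells in the other differences was not tested.

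The 7 haemoglobin genes in the list of blood and endothelial markers were all lower in ESC-PGCLCs, 6 of them under all 4 scalings. Hbb-y, an embryonic beta-type globin, was at 1153 and 1113 TPM in PGCs and 300 and 353 in ESC-PGCLCs. Hba-x, the embryonic zeta globin, was at 257 and 258 against 49.5 and 51.9 (-2.32, adjusted p = 0.00033), and Hba-a1 at 582 and 450 against 97.9 and 104. In ESCs these 3 genes had at most 1.03 TPM, so the ESC-PGCLC libraries were above ESCs. In pESC-PGCLCs, Hbb-y reached 1664 and 1274 TPM. Hba-a1 and Hba-a2 encode the same protein and share reads. Alas2 and Gata1, which erythroid cells also express, were below 1 TPM in the PGC and ESC-PGCLC libraries. Outside the globins only Pecam1 and C1qb of the list were called, neither after GC correction, and Pecam1 not without PGC replicate 1 or ESC-PGCLC replicate 1. Of the 13 tested members of this list, 9 were lower as deposited (21.5% of all genes) and 6 after GC correction (3.85%), with medians of -1.51 and -0.89.

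**Figure D4:**
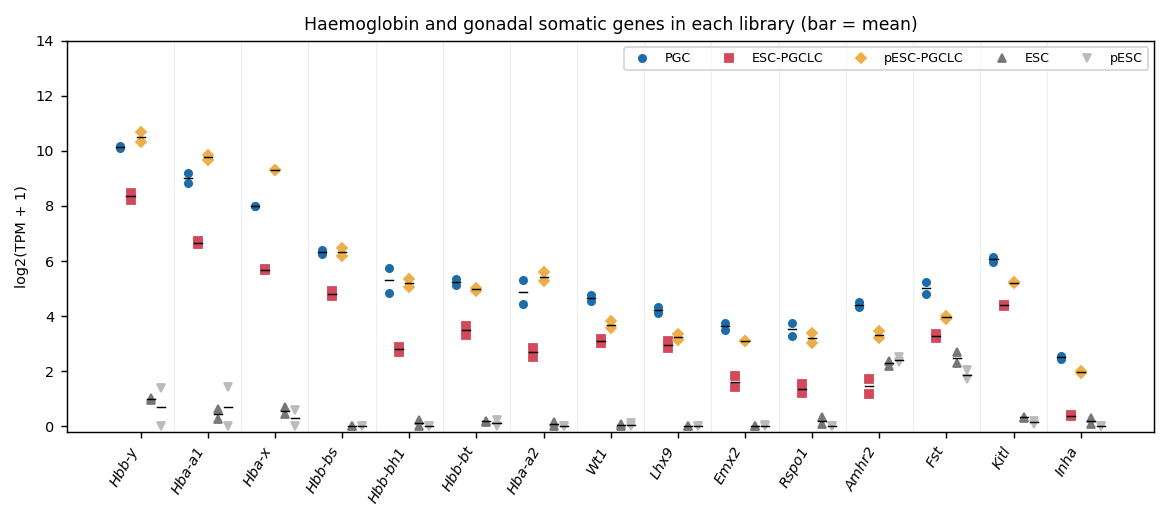
Haemoglobin genes (left) and gonadal somatic genes (right) in each library of the 5 groups, as log2(TPM + 1) with mean bars. ESC-PGCLCs lie below PGCs for all 15 genes and above ESCs for most, and pESC-PGCLCs lie between ESC-PGCLCs and PGCs for most gonadal genes.

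The promoters of globin genes that fell together are printed below, in the same windows, with the CACCC motif, the CCAAT box and the GATA motif GATAAG in capitals on either strand.
Hba-x, chr11:32276350-32276649, plus strand: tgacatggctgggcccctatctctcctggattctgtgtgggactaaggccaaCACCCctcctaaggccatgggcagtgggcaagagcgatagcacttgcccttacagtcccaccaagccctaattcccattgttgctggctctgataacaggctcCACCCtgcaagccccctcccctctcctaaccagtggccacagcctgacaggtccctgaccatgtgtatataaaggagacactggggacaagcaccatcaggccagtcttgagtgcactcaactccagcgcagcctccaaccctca
Hba-a1, chr11:32283422-32283721, plus strand: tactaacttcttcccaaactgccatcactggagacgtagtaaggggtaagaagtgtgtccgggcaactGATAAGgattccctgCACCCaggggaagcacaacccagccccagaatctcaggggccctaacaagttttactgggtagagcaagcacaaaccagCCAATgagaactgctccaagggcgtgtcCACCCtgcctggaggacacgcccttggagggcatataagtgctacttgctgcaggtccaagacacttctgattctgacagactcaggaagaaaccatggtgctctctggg
Hbb-y, chr7:103853158-103853457, minus strand: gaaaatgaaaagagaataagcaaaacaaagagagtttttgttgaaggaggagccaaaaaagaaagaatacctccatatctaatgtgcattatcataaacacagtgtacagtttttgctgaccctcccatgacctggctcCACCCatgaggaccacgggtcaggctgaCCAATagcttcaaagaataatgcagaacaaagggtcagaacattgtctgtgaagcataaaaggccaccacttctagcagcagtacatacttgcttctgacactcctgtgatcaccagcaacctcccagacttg
The Hba-x window held 2 CACCC motifs, that of Hba-a1 2 CACCC, 1 CCAAT and 1 GATAAG, and that of Hbb-y 1 CACCC and 1 CCAAT. Over all windows 57.5% held CACCC, 37.4% CCAAT and 7.44% GATAAG. The 3 windows held 2, 4 and 1 CpG, against a median of 7 over all windows.

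Endoderm genes were lower in 9 of 18 cases and higher in none, against 21.5% of all genes, and in 3 after GC correction, against 3.85% (medians -1.03 and -0.31). Under all 4 scalings these were the keratin genes Krt8 (10.9 and 12.2 against 2.15 and 2.38 TPM) and Krt18, which many epithelia express, and Apoe, a lipid carrier (21.9 and 21.0 against 4.62 and 4.60). Gata4, which gonadal somatic cells also express, fell from 5.82 and 3.89 to 0.485 and 0.818 TPM. Markers of fibroblasts and feeder cells were lower in 3 of 8 cases, Vim, Col3a1 and Col6a1, against 21.5% of all genes, and in none after GC correction. The count was larger without PGC replicate 2.

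**Figure D5:**
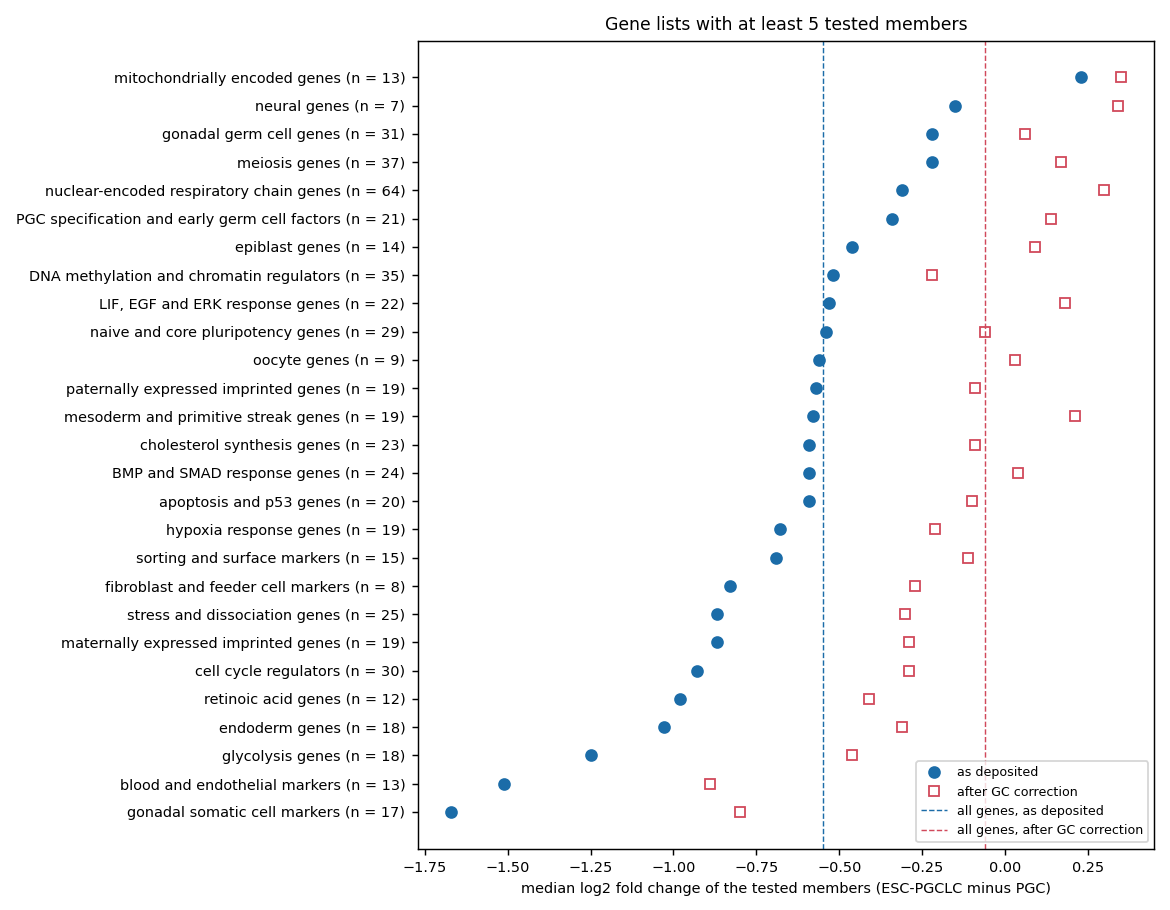
Median log2 fold change (ESC-PGCLC minus PGC) of each gene list with at least 5 tested members, as deposited (filled circles) and after GC correction (open squares). Dashed lines show the medians of all genes, -0.55 and -0.06. Gonadal somatic and blood markers lie lowest on both scales.

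Signalling genes of the culture and of the gonad were mixed. Of 12 retinoic acid genes 6 were lower (median -0.98), against 21.5% of all genes, and 3 of them under all 4 scalings. After GC correction 3 were lower, against 3.85% of all genes, and 1 higher. Those lower under all 4 scalings were Aldh1a1 (17.1 and 15.1 against 2.77 and 2.79 TPM) and Aldh1a2 (20.4 and 13.0 against 3.81 and 5.32), which make retinoic acid, and Dhrs3, which lowers it. Dhrs3 passed the filter through the PGC libraries alone (4.82 and 2.35 against 0 and 0.252 TPM), so it could not come out higher. Of 24 genes of BMP and SMAD signalling 3 were lower (7 without PGC replicate 2), a share below the 21.5% of all genes, and 1 was lower and 1 higher after GC correction. Of the lower ones, Fst, an activin antagonist, fell from 37.2 and 27.1 to 8.16 and 9.25 TPM. Of 22 genes of LIF, EGF and ERK signalling 5 were lower and 1, Spry2, higher (3 lower without PGC replicate 1, 2 higher without ESC-PGCLC replicate 1), and 1 was lower and 2 higher after GC correction. The lower count is near the 21.5% of all genes. Among the lower ones were Egr1, an ERK target (20.6 and 13.8 against 4.45 and 4.88), Dusp5 and Ccnd1. Dusp5 was not called without PGC replicate 1, and Ccnd1 not without ESC-PGCLC replicate 1. Kitl and Fst are also in the list of gonadal somatic markers.

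Of 35 regulators of DNA methylation and chromatin 8 were lower and none higher, with a median of -0.52, both near the 21.5% and -0.55 of all genes. Without PGC replicate 1 the count was 4. Dnmt1, the maintenance DNA methyltransferase, was at 43.0 and 27.3 TPM in PGCs and 14.1 and 13.0 in ESC-PGCLCs, and Prmt5, an arginine methyltransferase of PGCs, at 19.6 and 15.6 against 4.46 and 5.84. None of the 8 was called after GC correction, and Dnmt1 was not called without PGC replicate 1. Paternally expressed imprinted genes were lower in 5 of 19 cases, among them Igf2 (9.51 and 8.88 against 1.98 and 1.76 TPM) and Mest (51.5 and 47.1 against 16.2 and 16.8), which is near the 21.5% of all genes, and 1 was lower after GC correction. Maternally expressed ones were lower in 9 of 19, with H19 and Cd81 (42.4 and 32.6 against 7.52 and 7.43) under all 4 scalings, against 21.5% of all genes, and 3 were lower after GC correction, against 3.85%. No imprinted gene of either kind was called higher.

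On the X chromosome 109 of 660 genes were lower (16.5%) and 24 higher (3.64%), against 21.7% and 3.45% of 14582 autosomal genes. Median changes were -0.38 and -0.56, and after GC correction 0.00 and -0.06. Xist, the RNA that coats the inactive X, was at 4.58 and 2.60 TPM in PGCs and 0.868 and 0.699 in ESC-PGCLCs, and its antisense Tsix at 9.60 and 5.14 against 0.969 and 1.42. The 2 genes overlap, and without strand their reads cannot be told apart. The Y-linked gene Ddx3y was at 0 in all 4 libraries.

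Of 15 tested sorting and surface markers 2 were lower, Podxl and Pecam1, a share below the 21.5% of all genes, and none higher. Pecam1 was not called without PGC replicate 1 or ESC-PGCLC replicate 1. Podxl, a sialomucin, fell from 16.4 and 13.4 to 2.72 and 3.49 TPM (-1.95, adjusted p = 0.00052), under all 4 scalings. Itgb3, which encodes the sorting marker CD61, was at 8.53 and 8.07 TPM in PGCs and 4.38 and 4.41 in ESC-PGCLCs (-0.78, adjusted p = 0.0036), and Fut4 and Fut9, which make the SSEA1 epitope, at 11.2 and 10.1 against 6.97 and 6.09 and at 1.04 and 1.51 against 0.684 and 0.533. Epcam (183 and 179 against 108 and 113 TPM), Cd9 (186 and 161 against 105 and 99.7), Itgb1, Itga6, Cdh1 and Prom1 differed by -0.67 to -0.96 without reaching 2-fold, beside a median of -0.55 for all genes. Cd24a, Cxcr4 and Itgav differed by -0.37 to 0.03. After median centring the change was -0.18 for Itgb3, -0.02 for Fut4, -0.10 for Epcam and -0.35 for Itgb1. After GC correction these genes changed by -0.11, 0.08, -0.01 and -0.63, so most of these differences depended on the scaling.

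Energy metabolism gave lower glycolysis genes and a split respiratory chain. Of 18 glycolysis genes 11 were lower and none higher, with a median of -1.25, against 21.5% of all genes, and 3 after GC correction, against 3.85%. Eno1 fell from 22.0 and 14.7 to 3.32 and 3.11 TPM, Ldha from 115 and 113 to 33.0 and 35.9, and Tpi1 from 24.4 and 24.9 to 6.19 and 5.98, under all 4 scalings. Of 64 nuclear genes of the respiratory chain 10 were lower and 4 higher, against 21.5% and 3.49% of all genes. The higher count moved without ESC-PGCLC replicate 2 or either PGC library. Uqcrc1, of complex III, fell from 76.9 and 79.4 to 13.6 and 10.8 TPM, and Cox7c, of complex IV, rose from 2810 and 3891 to 8166 and 10790, both under all 4 scalings. After GC correction 1 was lower and 17 were higher (6.96% of all genes were), so the balance of this list turned with the scaling.

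Of 13 mitochondrially encoded genes 2 were higher and 1 lower, against 3.49% and 21.5% of all genes. The higher count was larger without PGC replicate 2. The ATP synthase genes mt-Atp8 (4108 and 6779 against 19950 and 20950 TPM) and mt-Atp6 (4612 and 5026 against 10360 and 11820), which overlap each other on the mitochondrial genome, rose under all 4 scalings. The gene on the other strand, mt-Nd6, fell from 8635 and 6935 to 3237 and 3221, but was not called after median centring. The most abundant transcripts of both groups included mt-Cytb, at 23960 and 43020 TPM in PGCs and 56750 and 49040 in ESC-PGCLCs, and the predicted gene Gm26377. The top 5 of PGCs also held mt-Nd1, mt-Ts1 and mt-Te, and the top 5 of ESC-PGCLCs mt-Atp8 and the predicted genes Gm10800 and Gm12338.

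Of 30 cell cycle regulators 12 were lower and none higher (median -0.93), against 21.5% of all genes. After centring 3 were lower, against 4.46% of all genes, and after GC correction 1, against 3.85%. Plk1, a mitotic kinase, fell from 44.5 and 21.1 to 7.17 and 6.82 TPM under all 4 scalings, and Cdk4 from 104 and 55.4 to 23.4 and 22.7. Of 20 apoptosis and p53 genes 6 were lower (21.5% of all genes were), among them Bax (33.9 and 26.2 against 8.40 and 6.24) and Trp53 (17.5 and 9.52 against 4.31 and 4.80), the latter not without PGC replicate 1. The count was 1 after GC correction, against 3.85% of all genes. Of 25 stress and dissociation genes 12 were lower, against 21.5% of all genes, and 3 higher, against 3.49%. After centring 4 were lower and 3 higher, and after GC correction 1 was lower and 3 were higher. The lower ones as deposited included the immediate early genes Fos (101 and 65.4 against 24.9 and 25.7 TPM), Jund and Zfp36, and the higher ones on all these scales were the heat shock genes Hspa1a (0.264 and 0.149 against 7.72 and 7.62) and Hspa1b and the stress gene Chac1 (0.0958 and 0.0676 against 2.06 and 1.95). Hspa1a and Hspa1b are near-identical copies, so their single values are uncertain. Chac1 rested on 1 and 1 reads in PGCs against 16 and 13 in ESC-PGCLCs. Hspa1a and Chac1 passed the filter through the ESC-PGCLC libraries alone.

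Of 19 hypoxia genes 5 were lower (21.5% of all genes were), or 2 without PGC replicate 1 and 1 after GC correction, with Hilpda, a lipid droplet protein, falling from 56.4 and 33.1 to 11.3 and 8.91 TPM, and 1, Higd1a, was higher (86.1 and 172 against 246 and 260). Higd1a was not called without PGC replicate 1 or either ESC-PGCLC library. Of 23 cholesterol synthesis genes 6 were lower (21.5% of all genes were), with Mvd (13.4 and 10.8 against 1.70 and 1.98) and Tm7sf2 (11.9 and 13.0 against 2.03 and 2.33) under all 4 scalings, and Insig1 was higher. The balance turned with the scaling, with 2 lower and 4 higher after centring and 2 lower and 3 higher after GC correction. Of 3 tested genes of the two-cell stage list none was called, with L1td1 at 11.9 and 17.0 against 17.6 and 20.1 TPM.

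The median log2(TPM + 1) of the 3312 lower genes was 3.60 and 3.26 in PGCs, 1.98 and 1.99 in ESC-PGCLCs, 3.14 and 3.13 in pESC-PGCLCs, and 2.77 and 2.64 in ESCs. Over the 537 higher genes it was 2.22 and 2.05 in PGCs, 3.51 and 3.96 in ESC-PGCLCs, and 1.60 and 1.62 in pESC-PGCLCs. The rule chose these genes on the PGC and ESC-PGCLC libraries, so their levels in those 4 libraries are a description.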

How the data were processed

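RNA of 10 libraries (2 each of ESC, pESC, ESC-PGCLC, pESC-PGCLC and PGC) was used. The deposited values are TPM per gene symbol, which the authors made from reads aligned to mm10 with HISAT2, and the tool that gave TPM is not given in the sources used here (the submitters' notes also name Bowtie2 and RSEM, without a role). The labels name a NEBNext kit and the study's methods Smart-seq2, and the doses for epiblast-like cells differ between them. Symbols were matched to GENCODE M21 (35861 of 36066), and reads were recovered from TPM and exon length (95.5% to 95.9% whole within 0.05 reads). Genes with at least 1 TPM in 2 of the 4 libraries were fitted as log2(TPM + 1), which understates the change of low genes, with limma 3.58.1 (R 4.3.3), 5 group means and a variance trend, and adjusted by Benjamini-Hochberg. The tests were tried on simulated data. Lists were curated by hand and described by counts and medians. Named were the 15 largest rises and 15 largest falls (at least 10 TPM in the higher group, no overlap, 200 nt of exon, no predicted or clone name), up to 4 called genes a list and direction, all tested members of the specification, sorting and sex-linked lists, the 5 most abundant genes a group, and 2 members of each list without a call. Members and lists were chosen with earlier results of these data known. Alternatives were a pseudocount of 0.1, other filters, fewer libraries, quantile normalization, centring, a replicate block, other thresholds, leaving out libraries and voom on recovered reads. The GC correction (15280 of 15386 genes had a value) and the fit of protein-coding genes were added after seeing the data. RefSeq promoter windows numbered 32841. A few genes that this rule names are not reported here.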

Additional observations from a re-analysis of the deposited data

How the results depend on the processing

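Scaling moved the counts most. Against 3312 lower and 537 higher genes, quantile normalization gave 1012 and 1190, median centring 686 and 1425 and GC correction 588 and 1064. All 686 and all 588 were among the 3312. Without a fold minimum 7194 were lower and 966 higher, and protein-coding genes fitted alone gave 206 higher. Members of the gene lists, counted once each, were 147 lower and 14 higher, and 70 lower with quantile normalization, 49 and 48 with centring and 39 and 37 with GC correction. X-linked genes, 109 lower and 24 higher, became 34 and 47, 20 and 58, and 29 and 42 under these 3 scalings, and autosomal genes, 3171 and 503, became 965 and 1129, 661 and 1348, and 555 and 1016. Why the counts moved with GC was not tested. The other alternatives kept these counts within 1.5 times, apart from leaving out single libraries, which gave 2586 to 4094 lower and 370 to 639 higher genes, 9 to 22 list members higher (9 without ESC-PGCLC replicate 2 or PGC replicate 1, 22 without PGC replicate 2), 14 to 32 X-linked genes higher (14 without PGC replicate 1) and 344 to 593 autosomal genes higher. In all 4 such fits 1929 lower and 240 higher genes kept their call. Without PGC replicate 1, 16 lower and 6 higher of the 125 named called genes lost it.

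With a replicate block 3328 genes were lower and 541 higher. Same-numbered libraries did not deviate together (correlation -0.094 over 9024 genes, 2 pairs), so the numbers were not taken to pair the samples.

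Of the 125 named called genes only Mesp1 changed sign, to 0.04 with GC correction. Among named genes without a call, signs turned (log2 values) with quantile normalization for Cxcr4 0.45, Hoxd1 0.51, Hoxd8 0.12, Itgav 0.26, Kit 0.21, Lhx2 0.40, Nanog 0.14, Prdm1 0.37, Prdm14 0.33 and Tfap2c 0.32. With median centring they turned for Cxcr4 0.42, Fut9 0.11, Hoxd1 0.58, Hoxd8 0.17, Ifitm1 0.33, Itgav 0.24, Kit 0.23, Lhx2 0.48, Nanog 0.27, Prdm1 0.35, Prdm14 0.36, Rhox5 0.51, Rhox6 0.16, Tfap2c 0.32 and mt-Nd1 0.25. With GC correction they turned for Cxcr4 0.20, Dnd1 0.06, Fut4 0.08, Hoxd1 0.77, Hoxd8 0.40, Ifitm1 0.31, Kit 0.11, Lhx2 0.79, Nanog 0.03, Prdm1 0.14, Prdm14 0.34, Rhox5 0.55, Rhox6 0.31 and Tfap2c 0.41, and with voom for Hoxd1 0.05 and Rhox5 0.02. Leaving out 1 library at a time gave both signs for Cd24a (-0.14 to 0.20), Elavl2 (-0.25 to 0.31), Eif1a (-0.03 to 0.16), Hoxd1 (-0.40 to 0.35), Kit (-0.79 to 0.04), Nanos3 (-0.47 to 0.48) and Rhox6 (-1.0 to 0.10). The shallower ESC-PGCLC libraries limit what can be said of genes near 0.3 TPM.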
